A study of Mus musculus with 9 samples.

Results

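The IL-23, IL-17 and IL-22 axis was described by 10 genes, chosen by symbol from the 21498 gene symbols of the expression files, with repeated symbols summed. They were the IL-23 subunit genes Il23a and Il12b, the receptor gene Il23r, the IL-17 ligand genes Il17a, Il17f and Il17c, the IL-17 receptor gene Il17ra, the cytokine gene Il22, its receptor gene Il22ra1 and Il22ra2, the gene of its soluble binding protein. All 10 were in the files, 9 were above 0 FPKM in at least 1 library, and 7 passed the filter of at least 0.1 FPKM in at least 3 libraries. FPKM, the unit read from the values, is a fragment count scaled by library size and transcript length.

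The RNA came from the colorectum of male ICR mice, 5 weeks old at the start and killed at the end of week 18, in 3 groups of 3 libraries labelled as biological replicates. Control mice received neither azoxymethane (AOM), dextran sulfate sodium (DSS) nor antibody, and their tissue was labelled normal colorectal mucosa. The other 2 groups, AOM/DSS + IgG Ab and, with the S100a9 antibody, AOM/DSS + anti-S100a9 Ab, received 10 mg/kg of the colon carcinogen AOM and then 3 rounds of drinking DSS, an irritant of the colon lining, at 2% over 7 days in round 1 and at 1.5% over 5 days in rounds 2 and 3. During those rounds they were given 1.5 mg/kg of negative control IgG or of an antibody against the inflammatory protein S100a9 every 2 days, and the labels call the tissue of both groups colorectal adenocarcinoma. Treatment and tissue type cannot be told apart in a comparison with Control. The study itself called the anti-S100a9 Ab tissue colon mucosa and reported fewer tumors in that group. The share of tumor in each library is not given, so treatment and tumor content cannot be told apart between the antibody groups either.

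IL-23 is a cytokine of myeloid cells built from the p19 chain, encoded by Il23a, and the p40 chain, encoded by Il12b and shared with IL-12. It acts through Il23r on type 3 lymphocytes (Th17 cells, gamma delta T cells and group 3 innate lymphoid cells), which release IL-17A, IL-17F and IL-22. In the gut, IL-17 draws neutrophils through induced chemokines, and IL-22 acts on epithelial cells, where it drives antimicrobial and repair genes.

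Sequence is shown for the promoters of Il17a and Il17f because these ligand genes lie near each other on chromosome 1 and had their highest values in the same libraries. The 250 bases before each start site are printed from RefSeq (GRCm38.p6), Il17a from chr1:20730655-20730904 on the plus strand and Il17f from chr1:20784271-20784520 on the minus strand. Capitals mark AGGTCA, searched on both strands, the core letters that many nuclear receptors are known to bind (TGACCT is its reverse complement).
Il17a: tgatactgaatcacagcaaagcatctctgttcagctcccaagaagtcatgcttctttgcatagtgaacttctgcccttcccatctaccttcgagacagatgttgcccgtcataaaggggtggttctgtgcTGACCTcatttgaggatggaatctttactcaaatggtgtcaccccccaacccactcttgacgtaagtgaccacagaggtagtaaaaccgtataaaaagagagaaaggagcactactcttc
Il17f: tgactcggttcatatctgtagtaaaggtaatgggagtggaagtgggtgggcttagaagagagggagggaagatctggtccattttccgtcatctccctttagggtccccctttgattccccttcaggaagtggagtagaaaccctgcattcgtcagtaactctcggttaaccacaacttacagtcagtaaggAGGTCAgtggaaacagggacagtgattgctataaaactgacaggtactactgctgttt
RefSeq places the start of Il17f at a shorter transcript, and the GENCODE gene model given next includes a longer one that starts further upstream, so the printed Il17f window lies inside that gene model. The match lay at -120 to -115 from the start site of Il17a, on the reverse strand, and at -58 to -53 of Il17f, on the gene's own strand. A promoter entry was found for 7 of the 10 members (Il12b, Il17a, Il17c, Il17f, Il22, Il22ra1 and Il23r), and Il23r also held the letters, at -229 to -224 and at -66 to -61. Of 32851 promoter windows of the same length, 14% held them on either strand, so a match is a description of these letters and not of binding.

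The gene models lie in GRCm38 at chromosome 10, 128296139 to 128298752 for Il23a, at chromosome 11, 44400063 to 44414033 for Il12b and at chromosome 6, 67422932 to 67491855 for Il23r. Il17a is at chromosome 1, 20730905 to 20734496, Il17f at chromosome 1, 20777146 to 20790617, Il17c at chromosome 8, 122422020 to 122423639, and Il17ra at chromosome 6, 120463247 to 120487559. Il22 is at chromosome 10, 118204942 to 118210047, Il22ra1 at chromosome 4, 135728172 to 135752140, and Il22ra2 at chromosome 10, 19621998 to 19634681. All 10 are protein coding.

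Each library listed 4987 to 5446 symbols at 0 FPKM, and the housekeeping gene Gapdh was itself at 0.156 to 0.755 FPKM, so a value of 0 is given only as listed at 0. Epcam, an epithelial adhesion gene that marks the labelled tissue, was at 584 to 890.1 FPKM in the 9 libraries. Fold changes below are on the log2(FPKM + 0.1) scale, which understates changes of low genes, and p-values are from limma with Benjamini-Hochberg adjustment over 15278 genes. The AOM/DSS + IgG Ab libraries enter 2 of the 3 comparisons, as do the Control libraries, so the comparisons are not independent.

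Compared with Control, 1 of the 7 tested members, Il23a, was higher in AOM/DSS + IgG Ab and 0 were lower at an adjusted p under 0.05, where 8.18% of all tested genes were higher and 3.01% lower. At an unadjusted p under 0.05, 2 of 7 members passed (Il23a and Il22ra2), against 29.5% of all genes. One member was higher without overlap between the groups (Il23a) and 1 lower (Il22ra2), where 20.7% and 10.2% of all genes were. In anti-S100a9 Ab against IgG Ab, Il22ra1 was higher and Il23a lower at an adjusted p under 0.05, 1 member in each direction, where 6.72% of all genes were higher and 14.4% lower. Unadjusted, 4 of 7 members passed there (Il23a, Il22ra1, Il22ra2 and Il12b) against 39.1% of all genes, and 1 member was higher and 1 lower without overlap, against 18.5% and 28.5%. No member passed in either direction between anti-S100a9 Ab and Control, where 0.00655% of all genes (a single gene) were called higher and as many lower. There 1 of 7 members (Il12b) had an unadjusted p under 0.05 against 16% of all genes, and 2 members (Il12b and Il22ra1) were higher and 0 lower without overlap, against 17.3% and 13.7%. With 7 tested members these counts lie near the shares of all genes and are not read as a result about the members as a set. Higher genes made up 73.1% of the calls between IgG Ab and Control and 60.0% after quantile scaling, and 31.9% of the calls between anti-S100a9 Ab and IgG Ab, 47.2% after scaling to the same total and 44.9% after quantile scaling.

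**Figure D1:**
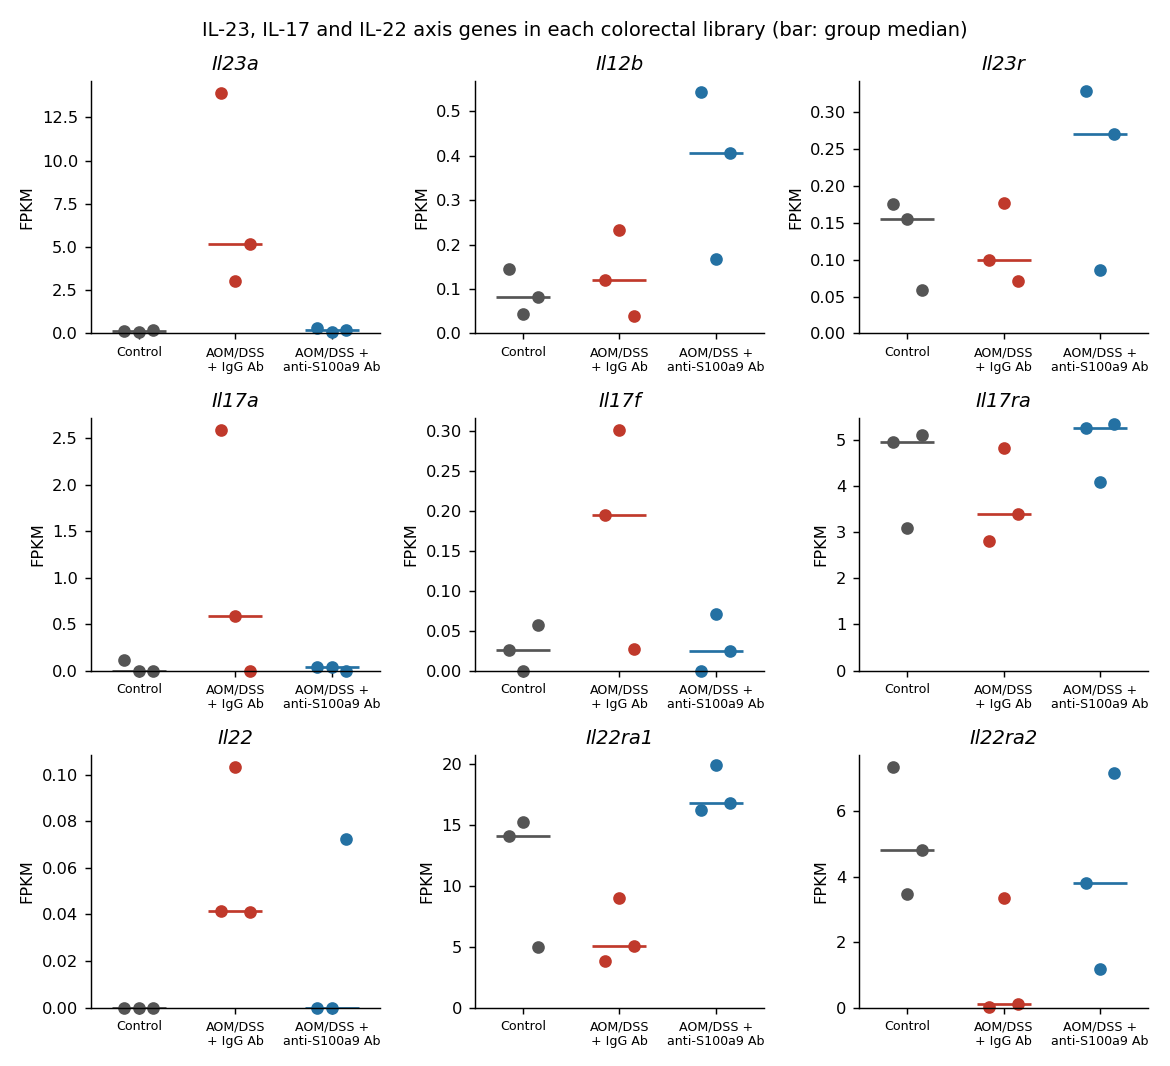
FPKM (vertical axes, each from 0 on its own scale) of the 9 members above 0 in at least 1 library, with 1 point per library in the Control, IgG Ab and anti-S100a9 Ab groups and a bar at the group median. The 3 IgG Ab libraries stand above all others for Il23a, and the anti-S100a9 Ab libraries above the IgG Ab libraries for Il22ra1.

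Il23a, which encodes the p19 chain particular to IL-23, was at 0.144, 0.0687 and 0.201 FPKM in the Control libraries 1 to 3. It was at 13.9, 3.06 and 5.17 FPKM in the AOM/DSS + IgG Ab libraries and at 0.3105, 0.0784 and 0.197 FPKM in the anti-S100a9 Ab libraries. Every IgG Ab library was above every other library, and the Control and anti-S100a9 Ab libraries overlapped. The group means were 0.138 ± 0.0665, 7.38 ± 5.76 and 0.195 ± 0.116 FPKM (SD, n = 3 each), a 53.5-fold higher mean in IgG Ab than in Control. On the log2 scale Il23a was 4.73 ± 0.55 (SE) higher in IgG Ab than in Control (limma adjusted p = 0.00189). With anti-S100a9 Ab it fell by 4.46 ± 0.55 against IgG Ab (limma adjusted p = 0.00374). It differed by 0.27 between anti-S100a9 Ab and Control, with a 95% interval from -0.98 to 1.52 (adjusted p = 0.82). Without IgG Ab library 1, the highest, the differences were 4.14 and -3.87 and both calls held. The study listed Il23a among cytokines it picked from these same samples, so its direction here is not independent evidence. In other mice, with acute DSS colitis, the study reported by qRT-PCR that Il23a, Il17a and Il12a rose and that anti-S100a9 Ab repressed them.

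Macrophages and dendritic cells are the known main sources of IL-23. Of their marker list, 0 of 10 passed in each of the 3 comparisons at an adjusted p under 0.05 by limma (0, 1 and 1 at an unadjusted p under 0.05). Those were Adgre1, higher in anti-S100a9 Ab than in IgG Ab, and Cd68, higher in anti-S100a9 Ab than in Control. Neither overlapped, where 18.5% and 17.3% of all genes were higher without overlap. The list's summed level was 181 to 272 FPKM in Control, 171 to 291 in IgG Ab and 196 to 222 in anti-S100a9 Ab, with none of its 10 genes at 0 in all libraries. The largest part of the sum was Cd14, at 107 to 212 FPKM in Control, 130 to 213 in IgG Ab and 127 to 130 in anti-S100a9 Ab. Of the neutrophil list 6 of 8 tested genes were higher in IgG Ab than in Control, with sums of 90.9 to 121 FPKM in Control, 134 to 689.95 in IgG Ab and 102 to 179.8 in anti-S100a9 Ab, and with 1 library left out 4 to 6 were higher. Without S100a8 and S100a9, a choice made after seeing the data, the other 7 genes summed to 90.2 to 119.8, 35.2 to 181 and 86.1 to 155 FPKM, and the groups overlapped. The largest part of these sums was Ly6g, at 88.8 to 117 FPKM in Control, 26.1 to 96.0 in IgG Ab and 82.1 to 150 in anti-S100a9 Ab. Csf3r, Cxcr2, Retnlg and Mmp8 were each called higher in IgG Ab than in Control and did not overlap, while Ly6g and Elane overlapped. Mpo did not overlap either, at 0.0449 to 0.0925 FPKM in Control and 0.110 to 0.159 in IgG Ab, but was not called (limma adjusted p = 0.32). Of all genes 20.7% were higher without overlap in this comparison. Of the Paneth cell list all 5 rose, with sums of 20.4 to 76.7, 983 to 1759.6 and 24.6 to 90.2 FPKM in the same order (4 to 5 with 1 library left out). Of the fibroblast list 4 of 5 were higher, with sums of 380.45 to 450.8 FPKM in Control and 599.9 to 2008 in IgG Ab, but this count rested on single libraries: it was 0 without Control library 1 or 2 or IgG Ab library 3, 1 without Control library 3, 2 without IgG Ab library 2 or any anti-S100a9 Ab library and 3 without IgG Ab library 1. Their part in the Il23a result was not tested. In bulk RNA, fewer cells of a type and less RNA per cell cannot be told apart.

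Il12b, which encodes the p40 chain of both IL-23 and IL-12, was at 0.146, 0.0430 and 0.0821 FPKM in Control, at 0.120, 0.232 and 0.0394 in IgG Ab and at 0.542, 0.167 and 0.405 in anti-S100a9 Ab. The IgG Ab libraries thus overlapped those of Control, and the lowest anti-S100a9 Ab library lay just above the highest Control library. Its log2 difference was 0.22 ± 0.44 (SE) between IgG Ab and Control (limma adjusted p = 0.77), 1.03 ± 0.44 between anti-S100a9 Ab and IgG Ab (adjusted p = 0.12) and 1.25 ± 0.44 between anti-S100a9 Ab and Control (adjusted p = 0.30). The rise of Il23a in IgG Ab thus came with a difference in Il12b that did not exceed the spread between libraries.

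Taken per library on the log2(FPKM + 0.1) scale, Il23a minus Il12b was 0.32 ± 0.38 in Control, 4.83 ± 1.42 in IgG Ab and -0.66 ± 0.09 in anti-S100a9 Ab (SD, n = 3 each). The added 0.1 is of the size of many Il12b values and shrinks these differences, in IgG Ab most where Il12b was lowest. On this scale the p19 gene exceeded the p40 gene by 5.99, 3.25 and 5.24 in the 3 IgG Ab libraries, and it lay below the p40 gene by a log2 value of -0.65, -0.58 and -0.76 in the anti-S100a9 Ab libraries. The groups did not overlap in any of the 3 comparisons, with differences of 4.51 between IgG Ab and Control, -5.49 between anti-S100a9 Ab and IgG Ab and -0.98 between anti-S100a9 Ab and Control. A two-sided exact permutation test gave p = 0.1 for each, also 0.1 after adjustment over 3 comparisons, the smallest that groups of 3 allow, so the design could not reach 0.05. Il12a, the p35 chain that pairs with p40 in IL-12, was at 0.883, 0.316 and 0.589 FPKM in Control, listed at 0 and at 0.555 and 0.0989 in IgG Ab, and at 0.967, 0.266 and 0.566 in anti-S100a9 Ab. Its lowest libraries, IgG Ab 1 and 3, were the ones with the highest Il23a. Its log2 difference was -1.48 between IgG Ab and Control (limma adjusted p = 0.19) and 1.44 between anti-S100a9 Ab and IgG Ab (limma adjusted p = 0.16). Neither passed, and both were opposite to the direction that the study reported for Il12a in acute DSS colitis.

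**Figure D2:**
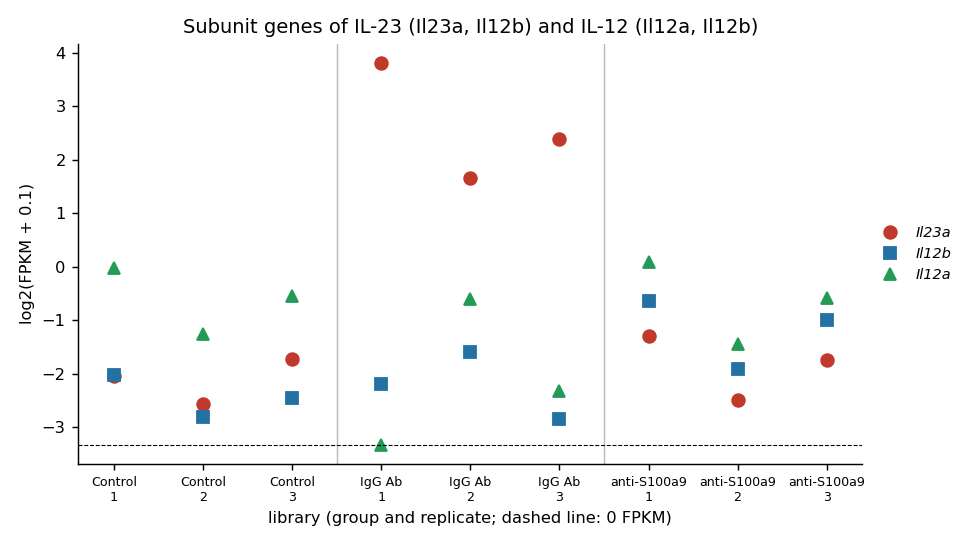
Level on the log2(FPKM + 0.1) scale (vertical axis) of Il23a, Il12b and Il12a in each of the 9 libraries (horizontal axis, grouped by treatment), with the dashed line at 0 FPKM. Il23a stands above Il12b and Il12a in the 3 IgG Ab libraries and below both in the 3 anti-S100a9 Ab libraries.

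Of the other IL-12 family genes (Il12a, Il27, Ebi3, Il12rb1, Il12rb2 and Il27ra), 6 of 6 were tested and 0 passed between IgG Ab and Control, with 0 at an unadjusted p under 0.05. Il12rb2, the signalling chain of the IL-12 receptor, was higher in anti-S100a9 Ab than in IgG Ab, at 0.331, 0.520 and 0.540 FPKM against 0.0958, 0.0798 and 0.0286 (log2 difference 1.75 ± 0.35 SE, limma adjusted p = 0.0157). The call was lost without anti-S100a9 Ab library 2 (adjusted p = 0.0630) or 3 (0.0534), in a range of 0.00932 to 0.0630 over all alternatives.

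Il23r, the chain that gives the IL-23 receptor its specificity, was at 0.175, 0.155 and 0.0584 FPKM in Control, at 0.1, 0.176 and 0.0706 in IgG Ab and at 0.328, 0.0862 and 0.271 in anti-S100a9 Ab. All 3 groups overlapped. The log2 differences were -0.08 (95% interval -0.99 to 0.82), 0.55 (-0.36 to 1.46) and 0.47 (-0.44 to 1.37) for IgG Ab against Control, anti-S100a9 Ab against IgG Ab and anti-S100a9 Ab against Control (limma adjusted p = 0.91, 0.33 and 0.56).

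Il17a, the main ligand of type 3 lymphocytes, was at 0.116 FPKM in Control library 1 and listed at 0 in Control libraries 2 and 3. In IgG Ab it was at 2.59 and 0.588 FPKM in libraries 1 and 2 and listed at 0 in library 3, and in anti-S100a9 Ab at 0.0352 and 0.0355 in libraries 1 and 2 and listed at 0 in library 3. The highest values of the 9 were those of 2 IgG Ab libraries, yet the groups overlapped because each held a library at 0. The log2 difference was 2.14 ± 0.99 (SE) between IgG Ab and Control (limma adjusted p = 0.19) and -2.22 ± 0.99 between anti-S100a9 Ab and IgG Ab (adjusted p = 0.13). Without IgG Ab library 3 both passed, at 3.39 (adjusted p = 0.0194) and -3.47 (adjusted p = 0.0191), in ranges over all alternatives of 0.0194 to 0.466 and 0.0191 to 0.320. Whether Il17a passed thus depended on IgG Ab library 3.

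Il17f, the neighbouring ligand gene, did not pass the filter on low values. It was at 0.0255 FPKM, listed at 0 and at 0.0566 in Control, at 0.196, 0.301 and 0.0276 in IgG Ab, and listed at 0 and at 0.0708 and 0.0250 in anti-S100a9 Ab. As with Il17a, IgG Ab libraries 1 and 2 held the highest values and library 3 lay within the range of the other groups. Fitted without the filter, its log2 difference was 0.98 ± 0.41 (SE) between IgG Ab and Control (limma adjusted p = 0.17) and -0.94 ± 0.41 between anti-S100a9 Ab and IgG Ab (adjusted p = 0.14).

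Il17c, an IL-17 ligand that epithelial cells make, was listed at 0 in all 9 libraries. Its gene model lies inside that of Gm20388, a longer gene on the same strand, so reads in the shared part may have been assigned otherwise. Il17ra, the receptor chain used by all of these ligands, was at 4.95, 3.09 and 5.10 FPKM in Control, at 2.81, 4.82 and 3.39 in IgG Ab and at 5.26, 4.09 and 5.34 in anti-S100a9 Ab. The groups overlapped, and the log2 differences were -0.25 (95% interval -0.86 to 0.36), 0.43 (-0.18 to 1.04) and 0.18 (-0.43 to 0.79) in the order given for Il23r (limma adjusted p = 0.57, 0.26 and 0.75). A change of Il17ra as large as that of Il23a lies outside all of these intervals.

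Of the other IL-17 family genes (Il17b, Il17d, Il25, Il17rb, Il17rc, Il17rd and Il17re), 5 of 7 were tested and 0 passed by limma in each comparison, with 1, 1 and 0 at an unadjusted p under 0.05. Without IgG Ab library 3, Il17d and Il17re were called lower in IgG Ab than in Control. Il17rc, the partner chain of Il17ra, was at 19.4 to 59.0 FPKM over the 9 libraries.

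Il22 did not pass the filter. It was listed at 0 in all 3 Control libraries, at 0.0415, 0.103 and 0.0412 FPKM in IgG Ab, and listed at 0 in 2 anti-S100a9 Ab libraries and at 0.0722 in library 3. All 3 IgG Ab libraries were above the Control libraries, but anti-S100a9 Ab library 3 lay above 2 of them. Fitted without the filter the log2 difference was 0.67 ± 0.24 (SE) between IgG Ab and Control (limma adjusted p = 0.11) and -0.41 ± 0.24 between anti-S100a9 Ab and IgG Ab (adjusted p = 0.24), and no fold is given against a group listed at 0. Iltifb, a near-identical copy of Il22 on the same chromosome (118289629 to 118295038), was listed at 0 except for 0.137 FPKM in IgG Ab library 2. Reads of the gene and its copy may have been split, so the level of Il22 is uncertain.

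Il22ra1, the receptor chain that confers IL-22 response on epithelial cells, was at 14.1, 15.3 and 4.98 FPKM in Control, at 3.81, 9.04 and 5.06 in IgG Ab and at 16.3, 19.9 and 16.8 in anti-S100a9 Ab. All anti-S100a9 Ab libraries were above every other library, and Control library 3 lay among the IgG Ab libraries. The means were 11.5 ± 5.64, 5.97 ± 2.73 and 17.7 ± 1.99 FPKM (SD, n = 3 each). Il22ra1 was 1.64 ± 0.44 (SE, log2) higher in anti-S100a9 Ab than in IgG Ab (limma adjusted p = 0.0333). The call was lost without IgG Ab library 1 (adjusted p = 0.0893) or 3 (0.0823) or without anti-S100a9 Ab library 1 (0.08475), 2 (0.104) or 3 (0.07915), while the log2 difference stayed between 1.37 and 1.98 over the libraries left out. The range of adjusted p over all alternatives was 0.00997 to 0.104. Against Control, IgG Ab differed by -0.86 ± 0.44 (limma adjusted p = 0.23) and, without Control library 3, by -1.38 (adjusted p = 0.0391, in a range of 0.0391 to 0.5003 over all alternatives). Anti-S100a9 Ab differed from Control by 0.77 ± 0.44 (adjusted p = 0.39).

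Among markers of colon epithelium, where Il22ra1 is expressed, Car1 and Slc26a3, genes of mature surface cells for carbonic acid and chloride handling, were lower in IgG Ab than in Control and higher in anti-S100a9 Ab than in IgG Ab, and the other 7 of 9 did not pass in either. Both calls between IgG Ab and Control were lost without Control library 2 (limma adjusted p = 0.106 for Car1 and 0.0515 for Slc26a3), and that of Car1 also without Control library 1 (0.0860) or 3 (0.0593), IgG Ab library 1 (0.0928) or 3 (0.0755) or anti-S100a9 Ab library 2 (0.0549). Between anti-S100a9 Ab and IgG Ab the call of Car1 was lost without IgG Ab library 1 or 3 or anti-S100a9 Ab library 2 or 3 (limma adjusted p = 0.0594 to 0.0737), and that of Slc26a3 held with any 1 library left out. The list summed to 2845 to 3504 FPKM in Control, 1869 to 2767 in IgG Ab and 2407 to 3059 in anti-S100a9 Ab. Their part in the Il22ra1 result was not tested.

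Il22ra2, a secreted decoy that binds IL-22 and blocks it, was at 7.33, 3.48 and 4.81 FPKM in Control, at 0.0329, 3.35 and 0.112 in IgG Ab and at 3.80, 1.19 and 7.17 in anti-S100a9 Ab. IgG Ab libraries 1 and 3 were the lowest of the 9, and IgG Ab library 2 lay just under the lowest Control library. Its log2 difference was -3.46 ± 1.13 (SE) between IgG Ab and Control (limma adjusted p = 0.0824) and 2.85 ± 1.13 between anti-S100a9 Ab and IgG Ab (adjusted p = 0.0991), and neither passed. Without IgG Ab library 2 both passed, at -4.92 (adjusted p = 0.00381) and 4.31 (adjusted p = 0.00688), in ranges over all alternatives of 0.00381 to 0.219 and 0.00688 to 0.247. Between anti-S100a9 Ab and Control the difference was -0.61 (95% interval -3.18 to 1.95).

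B cell genes were low in the same libraries. Ms4a1, a B cell surface protein gene, was at 19.4, 2.29 and 19.9 FPKM in Control, at 0.471, 11.9 and 0.523 in IgG Ab and at 28.1, 6.02 and 32.3 in anti-S100a9 Ab, so that IgG Ab libraries 1 and 3 were the lowest for it as for Il22ra2. The B and plasma cell list summed to 1225.1 to 2158.5 FPKM in Control, 329.99 to 1414.5 in IgG Ab and 596.4 to 2710.4 in anti-S100a9 Ab, and 0 of its 6 genes passed by limma in any comparison (0, 2 and 0 at an unadjusted p under 0.05). Without IgG Ab library 2, 3 of them were lower in IgG Ab than in Control and 5 higher in anti-S100a9 Ab than in IgG Ab. The T cell list, with 6 of 9 genes analysed, summed to 9.52 to 58.3 FPKM in Control, 8.74 to 31.4 in IgG Ab and 28.1 to 52.0 in anti-S100a9 Ab. None of either list was at 0 in all libraries, and their part in the values of Il22ra2 and Il17a was not tested.

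**Figure D3:**
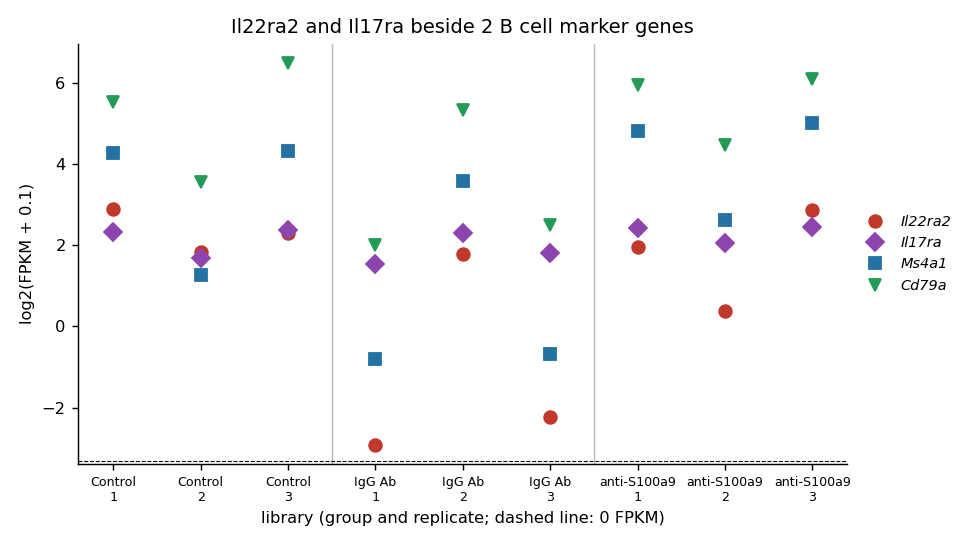
Level on the log2(FPKM + 0.1) scale (vertical axis) of Il22ra2, Il17ra and the B cell marker genes Ms4a1 and Cd79a in each of the 9 libraries (horizontal axis, grouped by treatment), with the dashed line at 0 FPKM. IgG Ab libraries 1 and 3 hold the lowest values of Il22ra2 and of both B cell genes.

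The order of the members differed between groups. In Control the means fell from Il22ra1 (11.5 FPKM) over Il22ra2 (5.21 ± 1.96) and Il17ra (4.38 ± 1.12) to Il23a (0.138 FPKM), Il23r (0.130) and Il12b (0.0903), and then Il17a, Il17f, Il22 and Il17c, and the first 3 overlapped in their ranges, as did Il23a, Il23r and Il12b. In IgG Ab Il23a had the highest mean (7.38 FPKM), ahead of Il22ra1 (5.97), Il17ra (3.67 ± 1.03) and Il22ra2 (1.16 ± 1.89), and the ranges of Il23a, Il22ra1 and Il17ra overlapped. This rank of Il23a rested on IgG Ab library 1: the means without it, computed after seeing the data, were 7.05 FPKM for Il22ra1, 4.12 for Il23a and 4.10 for Il17ra. In anti-S100a9 Ab Il22ra1 (17.7 FPKM) stood clear of Il17ra (4.90 ± 0.70) and Il22ra2 (4.05 ± 3.00), which overlapped, and no other member exceeded 0.542 FPKM in any library.

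**Figure D4:**
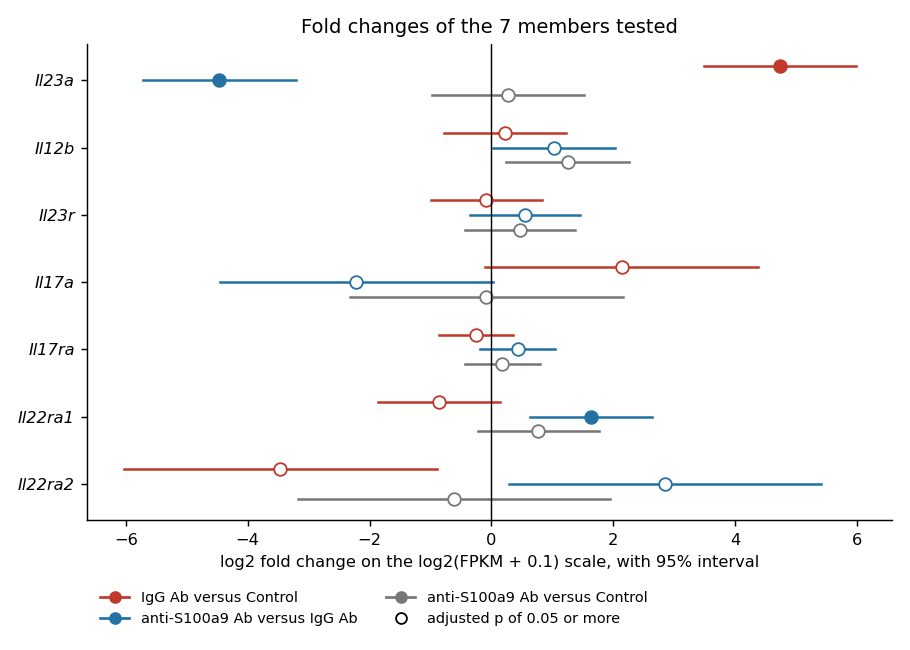
Log2 fold change on the log2(FPKM + 0.1) scale with its 95% interval (horizontal axis) of the 7 tested members (vertical axis) in 3 comparisons, filled where the limma adjusted p is under 0.05. Filled points are those of Il23a in IgG Ab against Control and in anti-S100a9 Ab against IgG Ab, and of Il22ra1 in the latter, and no point is filled for anti-S100a9 Ab against Control.

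For the members with a mean of at least 1 FPKM in any group, the tested genes most like them over the 9 libraries were found by Pearson's r of log2(FPKM + 0.1), as a description over libraries that share their groups. For Il23a they were B4galnt4 (r = 0.995), Gata5 (0.995) and Bpifb5 (0.994), and among the 3 for Il17a were Gata2 (0.968) and Tmem120b (0.965). For Il22ra1 they were Cobll1 (0.994), Slc35a3 (0.993) and Mtm1 (0.991), and for Il22ra2 Tlr1 (0.984), Tspan13 (0.980) and Klrb1b (0.973). Among the 3 for Il17ra were Slamf6 (0.994) and Lpxn (0.992). Slamf6, a lymphocyte surface receptor gene, was at 1.36, 0.208 and 1.80 FPKM in Control, 0.0813, 1.19 and 0.239 in IgG Ab and 1.66, 0.589 and 2.18 in anti-S100a9 Ab, high and low in the same libraries as Il17ra.

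Of 14 type 3 lymphocyte genes 13 were tested (Trdc is not analysed here), and 1 was higher and 2 lower in IgG Ab than in Control, with a median log2 difference of -0.47 against 0.09 for all genes. Ncr1, a receptor gene of innate lymphoid and natural killer cells, was at 1.68, 1.20 and 1.42 FPKM in Control, at 0.0484 and 0.621 in IgG Ab libraries 1 and 2 and listed at 0 in library 3, and at 1.17, 1.19 and 1.86 in anti-S100a9 Ab. It fell by 2.79 ± 0.64 on the log2 scale (limma adjusted p = 0.0278), and Il1r1, an IL-1 receptor gene also found in stromal cells, rose by 1.36 ± 0.24 (limma adjusted p = 0.0112). The call of Ncr1 was lost without any single Control library (adjusted p = 0.0867, 0.0772 and 0.0570) and without IgG Ab library 1 (0.0759) or 3 (0.0624), and without IgG Ab library 2 its difference was -3.64. Against IgG Ab, 4 were higher in anti-S100a9 Ab (among them Ncr1 by 2.74, Irf4 by 2.02 and Cd4 by 2.26, log2) and 0 lower, with a median of 0.83 against -0.06 for all genes. The calls of Ncr1 and Irf4 were lost without IgG Ab library 1 or 3 or any anti-S100a9 Ab library, that of Irf4 also without Control library 2, and that of Cd4 without anti-S100a9 Ab library 2 or 3. The number called higher was 0 without anti-S100a9 Ab library 2 or 3, 1 without IgG Ab library 1 or 3 or anti-S100a9 Ab library 1, and 6 without Control library 3 or IgG Ab library 2.

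Of 14 signal relay and feedback genes 13 were tested (Cebpd is not analysed here), and 2 were higher and 0 lower in IgG Ab than in Control, with a median of 0.14. Socs3, a feedback inhibitor that STAT3 induces, was at 9.99, 8.57 and 10.3 FPKM in Control, 65.3, 38.0 and 45.8 in IgG Ab and 11.6, 11.6 and 18.3 in anti-S100a9 Ab, with no overlap between IgG Ab and the other groups. It was 2.32 ± 0.24 (SE, log2) higher in IgG Ab than in Control (limma adjusted p = 0.00124) and fell by 1.84 ± 0.24 with anti-S100a9 Ab against IgG Ab (limma adjusted p = 0.00446). Stat3, the factor through which the IL-23 and IL-22 receptors signal, was 0.72 ± 0.12 higher in IgG Ab than in Control (limma adjusted p = 0.00956). The median between anti-S100a9 Ab and IgG Ab was -0.05, with Jak1 higher (0.54, limma adjusted p = 0.0486) and Cebpb lower (-1.74, limma adjusted p = 0.0256) besides Socs3. Without any single anti-S100a9 Ab library, or without IgG Ab library 3, the calls of Jak1 and Cebpb were lost, and that of Jak1 also without IgG Ab library 1 or Control library 2.

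Of 14 IL-17 target genes, all tested, 9 were higher and 0 lower in IgG Ab than in Control, with a median log2 difference of 2.79, and 0 were higher and 8 lower in anti-S100a9 Ab than in IgG Ab, with a median of -2.07. With 1 library left out 7 to 9 were higher in the first comparison and 5 to 9 lower in the second, where the count was 5 without any single anti-S100a9 Ab library. Pigr went the other way, at 1042, 884 and 791 FPKM in Control and 209, 721 and 343 in IgG Ab (log2 difference -1.27, limma adjusted p = 0.0761). Without IgG Ab library 2 it was called lower in the first comparison and higher in the second. Between anti-S100a9 Ab and Control 0 of 14 passed by limma, where 0.00655% of all genes passed in each direction. At an unadjusted p under 0.05 by limma 7 of 14 passed, against 16% of all genes, with a median of 1.25 against 0.04 for all genes. Cxcl1, Cxcl2, Cxcl5, Lcn2, Mmp3, Steap4, S100a8 and S100a9 were each higher in anti-S100a9 Ab than in Control without overlap, as were 17.3% of all genes. The other genes of the list overlapped. The 4 with the largest rise in IgG Ab against Control were S100a9 (7.73 ± 0.52 SE, limma adjusted p = 0.000252), S100a8 (7.37 ± 0.74, adjusted p = 0.0011), the neutrophil chemokine gene Cxcl5 (7.01 ± 0.49, adjusted p = 0.000281) and Lcn2 (6.04 ± 0.39, adjusted p = 0.000252), the gene of an iron-binding antimicrobial protein. S100a9, whose protein is the antibody's target, was at 0.370, 0.859 and 0.575 FPKM in Control, 63.1, 173 and 267 in IgG Ab and 10.3, 11.6 and 5.54 in anti-S100a9 Ab. Among the IgG Ab libraries, S100a9, S100a8 and Lcn2 were highest in library 3, where Il17a was listed at 0, and Cxcl5 was highest in library 2. The part of IL-17 in these values was not tested. S100a8 and S100a9 are also in the neutrophil list, whose other genes had overlapping sums that were mostly Ly6g, while others of them rose without overlap (above). Without IgG Ab library 1 the rise of S100a9 was 8.32 and that of S100a8 8.16, and without IgG Ab library 3 that of S100a8 was 6.78.

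Of 14 IL-22 target genes of the epithelium 13 were tested, and 6 were higher and 0 lower in IgG Ab than in Control, with a median of 1.74. Saa1 went the other way, at 1452, 1907 and 3324 FPKM in Control and 214, 1173 and 728 in IgG Ab (log2 difference -1.88, limma adjusted p = 0.0802). With 1 library left out, 0 to 1 genes of the list were called lower in IgG Ab than in Control. Between anti-S100a9 Ab and IgG Ab 0 were higher and 3 lower (Saa3, Lrg1 and Lbp), with a median of -1.40. Between anti-S100a9 Ab and Control 0 passed by limma, where 0.00655% of all genes passed in each direction. At an unadjusted p under 0.05 by limma 4 of 13 passed there, against 16% of all genes, with a median of 0.34. The count between IgG Ab and Control was 3 without Control library 2, 4 without Control library 1, and 5 to 7 without any other library, and the count lower in anti-S100a9 Ab than in IgG Ab was 1 without IgG Ab library 3 or anti-S100a9 Ab library 1 or 3, 2 without anti-S100a9 Ab library 2 and 5 without Control library 2. The calls of Lrg1 and Lbp there were lost without IgG Ab library 3 or any single anti-S100a9 Ab library. The largest rises were those of the antimicrobial lectin genes Reg3b (8.43 ± 1.62 SE, limma adjusted p = 0.0144) and Reg3g (6.02 ± 0.82, adjusted p = 0.00366), the acute-phase gene Saa3 (6.58 ± 0.75, adjusted p = 0.00178) and Nos2, which makes nitric oxide (3.09 ± 0.68, adjusted p = 0.0242). Reg3b was at 0.0505, 0.119 and 0.402 FPKM in Control, 45.0, 77.4 and 193 in IgG Ab and 3.85, 87.4 and 0.293 in anti-S100a9 Ab, where library 2 stood within the IgG Ab range. The fall of Reg3b against IgG Ab did not pass (limma adjusted p = 0.0977), and without anti-S100a9 Ab library 2 it was -6.14 with an adjusted p of 0.0296. Its rise was called except without Control library 1 (adjusted p = 0.0533) or 2 (0.0547), and that of Nos2 except without Control library 2 (0.0877) or 3 (0.0583), while without Control library 1 the rise of Nos2 was 3.97. Without Control library 2 the rises of Saa3 and Reg3g were 5.76 and 5.27, and for Saa3 the value was 7.24 without Control library 3 and 5.95 without IgG Ab library 3. Paneth cell genes, which include antimicrobial genes of small intestinal crypts, rose in the same libraries with the sums given above, and their part in the rise of the Reg3 genes was not tested.

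**Figure D5:**
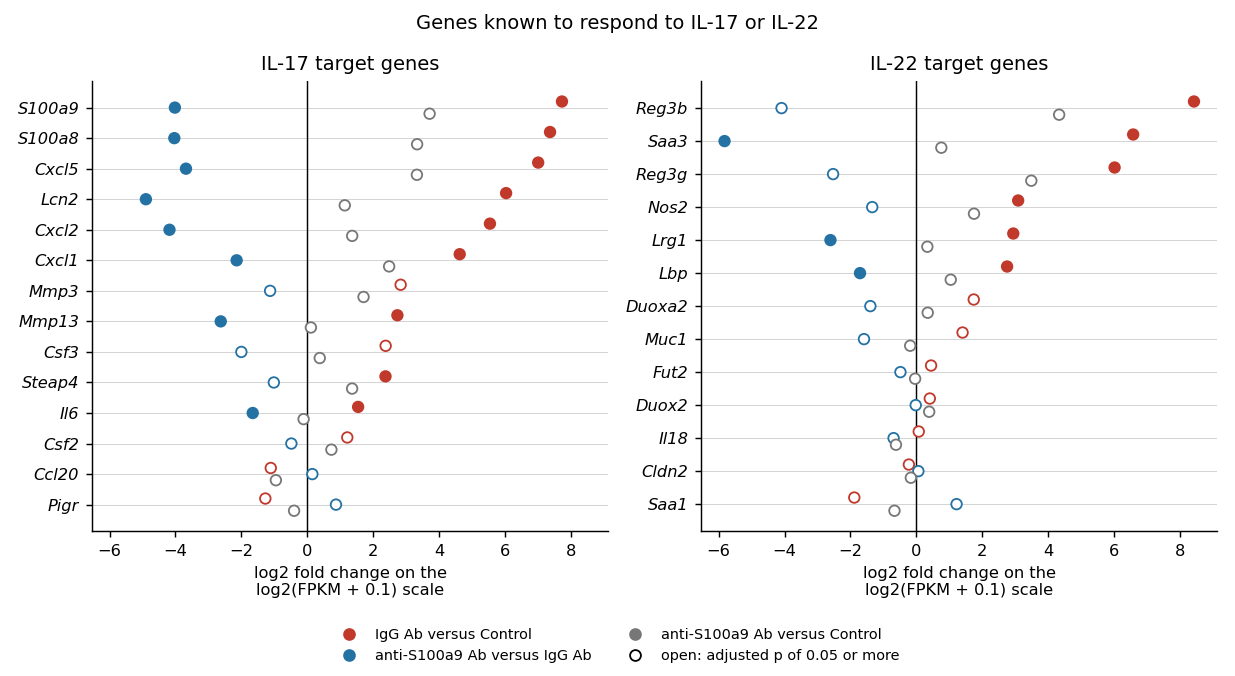
Log2 fold change on the log2(FPKM + 0.1) scale (horizontal axes) of the 14 IL-17 target genes and the 13 tested IL-22 target genes (vertical axes), in 3 comparisons, filled where the limma adjusted p is under 0.05. Of IgG Ab against Control 9 and 6 points are filled, all to the right of 0. Of anti-S100a9 Ab against Control none is filled, where 0.00655% of all genes passed in each direction.

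Of 8 IL-10 and IL-20 family genes 5 were tested, and Il20ra and Il20rb, the chains of the receptor for IL-19, IL-20 and IL-24, were higher in IgG Ab than in Control and lower in anti-S100a9 Ab than in IgG Ab, with list medians of -0.03 and 0.19. Il20ra was at 0.0165, 0.0193 and 0.0374 FPKM in Control, 0.618, 0.256 and 0.466 in IgG Ab and 0.162, 0.135 and 0.0794 in anti-S100a9 Ab (2.08 ± 0.32 SE between IgG Ab and Control, limma adjusted p = 0.00652). Its fall of 1.24 was no longer called without IgG Ab library 1 or 3 or any anti-S100a9 Ab library. The rise of Il20rb (1.04 ± 0.27, limma adjusted p = 0.0401) was lost without Control library 1 or 2, any IgG Ab library or any anti-S100a9 Ab library, and its fall without any anti-S100a9 Ab library. Il10rb, the chain that pairs with Il22ra1 in the IL-22 receptor, was at 20.7 to 27.4 FPKM over the 9 libraries and did not pass in any comparison.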

How the data were processed

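RNA from the colorectum of 9 male ICR mice was sequenced, 3 libraries in each of 3 groups, which were taken from the sample labels. The authors deposited 1 table of FPKM values per library, 21544 rows each, already normalized for library size and gene length. The submitters' processing notes name TopHat, Cufflinks, HTSeq and DESeq and the build GRCm38, without saying which step made the values, and the unit itself was read from the values. Total depth is unknown, so no counting interval is given. The 46 rows with a repeated symbol were summed, leaving 21498 symbols, 3877 of them at 0 in all libraries. Differences between the groups were tested in 1 limma fit over all 9 libraries (limma 3.58.1, R 4.3.3), with an intensity trend, on log2(FPKM + 0.1). Only the 15278 genes that reached 0.1 FPKM in 3 or more libraries were tested. P-values were adjusted by the Benjamini-Hochberg method over all 15278 genes. The fit was tested on simulated data. The test of the subunit balance was an exact permutation test. P-values measure the spread between these libraries, and no 2 libraries held the same values.

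The alternatives were the study's thresholds (more than 2-fold change at an unadjusted p under 0.05), only the 2 groups compared, the replicate block, pseudocounts of 1 and 0.01, other filters, no trend, 3 scalings and each library left out. The neutrophil list without S100a8 and S100a9 and the IgG Ab means without library 1 were added after seeing the data. The members, the gene lists and the tests were chosen with earlier results of these data known. Named were all 10 members and, of each list, up to 4 genes with the largest change between IgG Ab and Control at an adjusted p under 0.05, and those that passed in the other direction. Il10rb, Il12a, Il17rc, Il17d, Il17re, Epcam, Gapdh, Iltifb, Ms4a1, Cd79a, Lrg1 and Lbp were named beside them after their values were seen. So were Ly6g, Csf3r, Cxcr2, Mpo, Elane, Pigr and Saa1. Some genes that this rule covers are not reported here.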

Additional observations from a re-analysis of the deposited data

How the results depend on the processing

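Il23a kept both of its calls under all 19 alternatives fitted, with log2 differences from 2.66 to 5.47 between IgG Ab and Control (adjusted p 0.0014 to 0.0113) and from -5.07 to -2.60 between anti-S100a9 Ab and IgG Ab (0.00257 to 0.0225). By the study's thresholds (more than 2-fold change at an unadjusted p under 0.05) 2, 4 and 1 members passed for IgG Ab against Control, anti-S100a9 Ab against IgG Ab and anti-S100a9 Ab against Control, instead of 1, 2 and 0. At an adjusted p under 0.05 by limma, with 1 library left out, the members that passed were 1 to 2, 1 to 3 and 0 to 0. Over all genes, 1710, 3219 and 2 passed, and with 1 library left out 595 to 2269, 523 to 4106 and 0 to 5. Fitted on only the 2 groups compared, 603 genes passed between IgG Ab and Control and 0 between anti-S100a9 Ab and Control, and after scaling to the same total 2089 passed between anti-S100a9 Ab and IgG Ab. Between anti-S100a9 Ab and Control the number was 4 with a pseudocount of 0.01, 1 without the filter, 1 without the trend and 481 by the study's thresholds. Fewer libraries in a fit leave less information on the spread, and otherwise the cause was not tested. Scaling moved the median log2 difference of all genes by 0.11 and 0.19 in the comparisons of anti-S100a9 Ab with IgG Ab and Control (same total) and by -0.10 and -0.12 between IgG Ab and Control (median of ratios and quantile). No direction of a named call was reversed, but Il20rb lost its call between IgG Ab and Control (adjusted p = 0.0538 and 0.0594 after median-of-ratios and quantile scaling), and Il20ra and Jak1 theirs between anti-S100a9 Ab and IgG Ab (0.0555 and 0.0670, same total).

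Same-numbered libraries did not deviate together in every pair (correlations of -0.19 to 0.25), and 1, 2 and 2 of 3 libraries correlated best with their own number, so they were treated as sharing only a number. With the replicate block 1703, 3361 and 2 genes and 1, 2 and 0 members passed, and Il20rb and Jak1 each lost a call (adjusted p = 0.0612 and 0.0571, where all alternatives gave 0.0185 to 0.122 and 0.0265 to 0.156). Groups of 3 libraries, unknown depth and levels near the filter limit what can be said of Il12b, Il23r, Il17a, Il17f and Il22.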

Other observations

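Markers of fat cells, which can come with colon wall, were low in both treated groups. The adipocyte list (Adipoq, Cfd, Plin1, Lep and Retn) summed to 35.3 to 156.5 FPKM in Control, 0.0539 to 13.9 in AOM/DSS + IgG Ab and 0.0944 to 1.22 in AOM/DSS + anti-S100a9 Ab, and all 4 tested genes were lower in IgG Ab than in Control at an adjusted p under 0.05 by limma. That count was 0 without IgG Ab library 1 or 3, 1 without Control library 1 or 2, 2 without any single anti-S100a9 Ab library, 3 without Control library 3 and 4 without IgG Ab library 2. Between anti-S100a9 Ab and Control 0 of the 4 passed by limma, where 0.00655% of all genes passed in each direction. All 4 had an unadjusted p under 0.05 by limma, against 16% of all genes. The smooth muscle list (Acta2, Myh11, Des, Actg2, Cnn1 and Tagln) summed to 1801 to 2857 FPKM in Control, 518 to 3251 in IgG Ab and 2246 to 4074 in anti-S100a9 Ab, with IgG Ab library 1 the lowest of the 9, the library with the highest Il23a and Il17a. The part of the share of wall tissue in the members' values was not tested.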
